A study of Homo sapiens with 10 samples.

Results

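TTF-1 (NKX2-1) is the homeodomain transcription factor that marks lung epithelium and many lung adenocarcinomas, where it binds enhancers and promoters of epithelial genes. Smad3 and Smad4 carry the TGF-β signal: activated receptors phosphorylate Smad3, which enters the nucleus with Smad4 and binds DNA beside other transcription factors. The regions described here are the TTF-1 binding sites that were called in H441 cells at 0 h and not at 1.5 h, below named 0 h-only peaks. They were chosen by the positions of the peaks called at both times, as the 0 h peaks that share no base with any 1.5 h peak, and they number 10780 of the 31083 peaks at 0 h, or 34.7%. Across the 7 called lists of the series there were 79601 peaks. The other 20303 peaks at 0 h overlapped a 1.5 h peak by at least 1 bp and are named stable.

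Chromatin immunoprecipitation with sequencing (ChIP-seq) was run on H441, a lung adenocarcinoma line that expresses TTF-1, and on A549, a lung adenocarcinoma line that does not, per the labels. The TTF-1 libraries were made from H441 cells at 0 h and at 1.5 h, and their titles name no siRNA. Smad3 and Smad4 were mapped in H441 cells after siRNA against TTF-1 (siTTF-1) or a control siRNA (siControl), and Smad3 also in A549 cells. The labels give TGF-β3 at 1 ng/ml for 1.5 h as the treatment of every sample, the TTF-1 library at 0 h included. Reading 0 h as cells without TGF-β3 therefore rests on the title alone. No TTF-1 library of depleted cells was analysed here, so TTF-1 left at a site after depletion was not measured. With 1 library per condition, differences between conditions have no replicate check. The peak lists carry no read counts, so how deeply each library was sequenced is unknown. Positions are on hg18, counted from 1. The peaks are given without genes and without sequences, because the genome of that build was not used here.

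The 0 h-only peaks tended to be narrow and to have high numbers in the 0 h list. Each list numbers its peaks from 1, and no source used here says what the number means, but wide peaks tend to have low numbers (Spearman correlation -0.31 over 0 h-only peaks and -0.54 over stable peaks). The median peak number was 24567.5 for 0 h-only peaks (quartiles 20413.8 and 27937.2) and 10213 for stable peaks (quartiles 5076.5 and 16154.5). The first 0 h-only peak had number 5422. In 20 equal strata of the peak number, none of the 4662 peaks of the first 3 strata was 0 h-only, a count of 0 that allows a share of up to 0.0644% (3 counts of the total). The share of 0 h-only peaks was 22.3% in the tenth stratum (exact binomial 95% interval 20.2 to 24.4), 56.5% (54.0 to 58.9) in the fourteenth and 87.8% (86.1 to 89.4) in the last. The change was gradual, and stable peaks were found as late as number 31082. Because both TTF-1 lists define the 0 h-only peaks, their numbers, widths and distances are a description and were not tested.

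**Figure D1:**
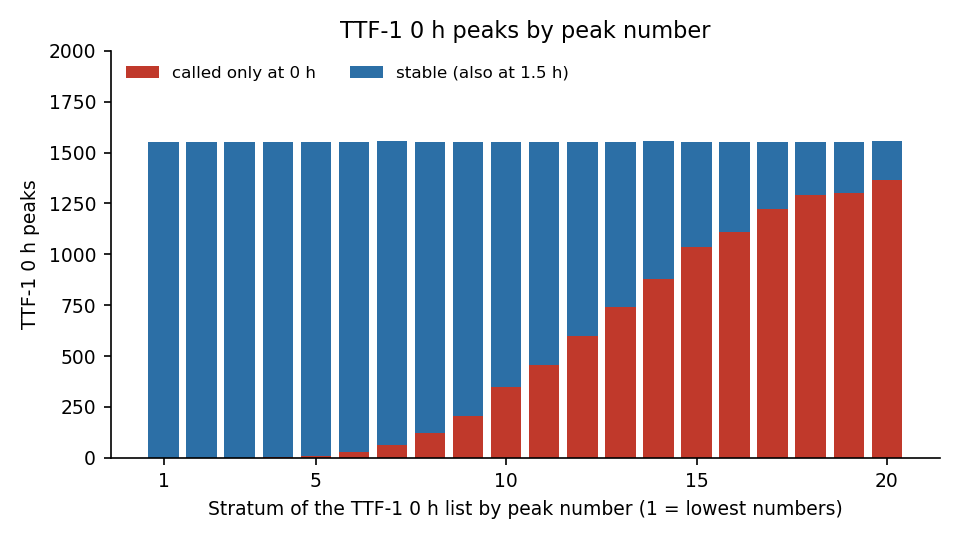
Number of TTF-1 0 h peaks (y axis) in each of 20 equal strata of the 0 h list by peak number (x axis), divided into peaks called only at 0 h and stable peaks. The 0 h-only part is absent from the first 3 strata and reaches 87.8% of the last.

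Most 0 h-only peaks stood beyond the length of the 1.5 h list, and some stood well within it. The 1.5 h list held 21291 peaks, and 7597 of the 10780 0 h-only peaks (70.5%, 69.6 to 71.3) had a number above 21291. The remaining 3183 stood among the first 21291 peaks of the 0 h list, where they made up 14.9% (14.5 to 15.4). Only 772 (7.16%, 6.68 to 7.66) stood in the first 10 of the 20 strata. The 5 with the lowest numbers lay on chromosome 3 (103383651 to 103384149, number 5422), chromosome 19 (52145651 to 52146099, number 5734), chromosome 17 (54729401 to 54729849, number 6585), chromosome 2 (138287101 to 138287799, number 6773) and chromosome 18 (22753701 to 22754449, number 7046). The peak on chromosome 19 overlapped Smad3 peaks of siControl and siTTF-1 cells, while the other 4 overlapped none of the Smad lists. The peak on chromosome 3 lay 1001 bp from the nearest 1.5 h peak, and the peak on chromosome 17 lay 129601 bp from it.

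The median width was 399 bp for 0 h-only peaks (range 99 to 1799) and 649 bp for stable peaks (range 149 to 3899). In all, 0 h-only peaks covered 4.79 Mb and stable peaks 14.8 Mb. Of the 482 peaks at 0 h narrower than 200 bp, 84.6% (81.1 to 87.7) were 0 h-only. Of the 3482 peaks of 1000 bp or more, 136 (3.91%, 3.29 to 4.60) were. Part of the difference in width goes with the peak number. In the second of 5 equal strata by number, which held 219 of the 0 h-only peaks, the median width was 499 bp for 0 h-only and 649 bp for stable peaks. In the third, the fourth and the fifth it was 499, 399 and 349 bp for 0 h-only peaks, and stable peaks were wider by 50 bp in each. The first stratum held only 2 of the 0 h-only peaks. A difference of 50 bp is the step in which the deposited positions are given. The 3 widest 0 h-only peaks measured 1799, 1699 and 1599 bp and stood late in the list, at numbers 28996, 28261 and 25038. The first of them, on chromosome 22 (35058251 to 35060049), and the second, on chromosome 10 (75317651 to 75319349), each lay 201 bp from a 1.5 h peak. The third, on chromosome 12 (13266401 to 13267999), lay 12401 bp from one.

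**Figure D2:**
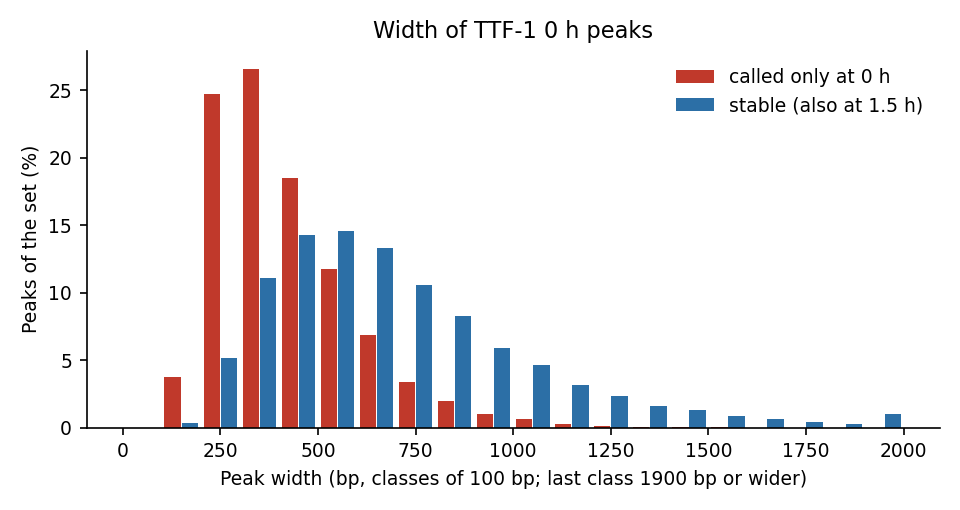
Share of each set (y axis, percent) by peak width in classes of 100 bp (x axis), for peaks called only at 0 h and stable peaks. The 0 h-only peaks centre on 399 bp and the stable peaks on 649 bp.

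Most 0 h-only peaks lay several kb or more from the nearest stable peak. The gap between nearest edges of a 0 h-only peak and a stable peak had a median of 20276 bp (quartiles 5201 and 63001 bp). A stable peak lay within 1 kb of 936 0 h-only peaks (8.68%, 8.16 to 9.23), within 10 kb of 35.5% (34.6 to 36.4) and within 100 kb of 83.8% (83.1 to 84.5). For stable peaks, the gap to another stable peak had a median of 13851 bp, and 43.6% (42.9 to 44.3) had one within 10 kb. At positions 25 kb to either side of the 0 h-only peaks the median gap was 25351 bp, and 25.1% lay within 10 kb of a stable peak. At 1 kb these positions stood at 4.83%, against 8.68% of the 0 h-only and 11.9% of the stable peaks. At gaps of up to 200 bp the order was turned, with 1.99% of the 0 h-only peaks and 2.42% of the positions. The rule keeps 0 h-only peaks off the 1.5 h peaks, whereas a shifted position may lie on a stable peak, so the shortest gaps are not comparable. At 100 kb the share for surrounding positions was 83.7%, close to that of the 0 h-only peaks. The nearest other 0 h-only peak was farther away, at a median of 43151 bp. There were 10780 0 h-only and 20303 stable peaks, and gaps to sets of unlike size are not directly comparable.

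**Figure D3:**
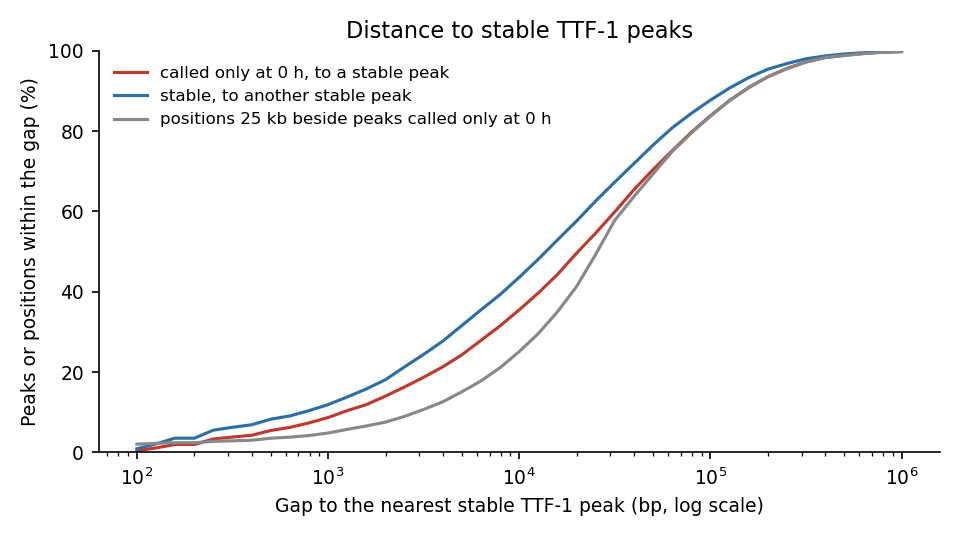
Share of peaks or positions (y axis, percent) whose nearest stable TTF-1 peak lies within a given gap (x axis, bp, log scale). At 10 kb the peaks called only at 0 h stand at 35.5%, stable peaks at 43.6% and positions 25 kb beside the 0 h-only peaks at 25.1%, while at 200 bp the positions, which may lie on a stable peak, stand above the 0 h-only peaks.

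At the border of the rule, 519 of the 0 h-only peaks had a 1.5 h peak within 500 bp, and 3 had one at a gap of 1 bp. These 3 lay on chromosome 8 (99419401 to 99420049, number 19294), chromosome 1 (11998101 to 11998499, number 23568) and chromosome 9 (78177851 to 78178299, number 25535). On the other side, the stable peak with the smallest overlap, 49 bp, lay on chromosome 6 (125429751 to 125430449, number 24143), and 237 stable peaks overlapped by under 200 bp. Of the 892 TTF-1 peaks called only at 1.5 h, 34 (3.81%, 2.65 to 5.29) lay within 1 kb of a 0 h-only peak and 143 (16.0%) within 1 kb of a stable peak. As the 10780 0 h-only and 20303 stable peaks differ in number and in covered length, these shares are not directly comparable. The 0 h-only peaks farthest from any 1.5 h peak lay on chromosome Y (6677151 to 6677399, 3968451 bp away), chromosome 21 (21494251 to 21494749, 3474151 bp) and chromosome 3 (90573301 to 90573399, 2997701 bp), and none overlapped a Smad peak.

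The number and width of a 0 h-only peak changed little with its distance from stable peaks. The median peak number ranged from 24318.5 to 24842 over 6 classes of distance (up to 1, 5, 10, 50 and 100 kb, and beyond), and the median width was 399 bp in each class. The nearest stable peak of those within 1 kb had a median number of 9200.5 and a median width of 699 bp, against 10066 and 649 bp for those beyond 100 kb. In the order along the chromosomes, 40.9% (40.0 to 41.9) of the 0 h-only peaks had a stable peak as the next TTF-1 0 h peak on both sides. A 0 h-only peak stood on both sides of 13.3% (12.7 to 14.0). Of all TTF-1 0 h peaks, 34.7% were 0 h-only. The shares for a random order were not computed, so these 2 shares are not read as a trait of the 0 h-only peaks.

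By chromosome, 0 h-only peaks made up between 31.0% (28.7 to 33.4, chromosome 10) and 41.5% (38.4 to 44.8, chromosome X) of the TTF-1 0 h peaks, leaving aside chromosome Y, which held 2 peaks. Chromosome 19 followed with 39.6% (35.6 to 43.6) and chromosome 13 with 39.2% (35.9 to 42.6). The median number of the TTF-1 0 h peaks ranged from 14243.5 on chromosome 10 to 17617 on chromosome 19, chromosome Y aside. The lowest medians, on chromosomes 10 (14243.5), 8 (14629) and 15 (14766), went with the lowest shares (31.0%, 32.7% and 32.1%). The highest median, on chromosome 19, went with a share of 39.6%. This order did not hold throughout. The median number was 16356.5 on chromosome X and 16174.5 on chromosome 13. It was higher than both on chromosomes 17 (16676.5), 21 (16511) and 16 (16437). There, 35.9%, 36.3% and 36.8% of the peaks were 0 h-only. The part of the peak number in these shares was not tested.

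The Smad libraries were not used to choose the 0 h-only peaks and asked which of these sites also bound Smad proteins. Smad3 was found at few of them: 691 of the 10780 0 h-only peaks (6.41%, 5.95 to 6.89) overlapped a Smad3 siControl peak, against 7112 of the 20303 stable peaks (35.0%, 34.4 to 35.7) and 25.1% of all TTF-1 0 h peaks. After TTF-1 depletion, 1530 of the 0 h-only peaks (14.2%, 13.5 to 14.9) met a Smad3 siTTF-1 peak, against 7326 of the stable peaks (36.1%, 35.4 to 36.7) and 28.5% of all. Smad4 siTTF-1 peaks lay at 97 of the 0 h-only peaks (0.900%, 0.730 to 1.10), against 700 of the stable peaks (3.45%, 3.20 to 3.71) and 2.56% of all. Smad3 peaks of A549 cells lay at 191 of the 0 h-only peaks (1.77%, 1.53 to 2.04), against 1033 of the stable peaks (5.09%, 4.79 to 5.40) and 3.94% of all. In total, 84.4% of the 0 h-only peaks and 56.3% of the stable peaks overlapped none of these 4 lists. The single Smad4 siControl peak lay at a stable peak.

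These shares were low against stable peaks but above the surroundings. At positions 25 kb to either side of the 0 h-only peaks, 0.807% overlapped a Smad3 siControl peak, 1.26% a Smad3 siTTF-1 peak, 0.0603% a Smad4 siTTF-1 peak and 0.158% a Smad3 peak of A549 cells. The share at the 0 h-only peaks was thus 7.94, 11.2, 14.9 and 11.2 times that of their surroundings. For stable peaks the same ratios were 25.9, 20.2, 25.5 and 16.1. Among overlapping pairs, which the overlap itself keeps close, the centres of Smad3 siControl and TTF-1 peaks lay at a median of 50 bp from each other at 0 h-only peaks and also at stable peaks. Only 26 of the 691 0 h-only peaks with Smad3 siControl (3.76%, 2.47 to 5.46) shared their Smad3 peak with a stable TTF-1 peak.

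Odds ratios of a Smad peak at 0 h-only against stable peaks were below 1 in all 4 lists. The ratio came to 0.127 (95% interval 0.117 to 0.138) for Smad3 siControl and 0.293 (0.276 to 0.311) for Smad3 siTTF-1, with p-values of Fisher's exact test (two-sided) too small to be represented in double precision. It was 0.254 (0.205 to 0.315, Fisher's exact test, Benjamini-Hochberg adjusted over the 4 lists p = 1.0e-48) for Smad4 siTTF-1 and 0.336 (0.288 to 0.393, adjusted p = 3.4e-52 by the same exact test) for A549 Smad3. Since 0 h-only peaks stand late in the list, the ratios were also taken within 5 equal strata of the 0 h peak number (Mantel-Haenszel). They were 0.269 (0.242 to 0.298) for Smad3 siControl, 0.370 (0.342 to 0.401) for Smad3 siTTF-1, 0.254 (0.193 to 0.334) for Smad4 and 0.324 (0.264 to 0.397) for A549. The lower share at 0 h-only peaks was thus found among peaks of like number as well. Within 5 equal strata of peak width the ratios were 0.185 (0.169 to 0.202) for Smad3 siControl and 0.362 (0.339 to 0.387) for Smad3 siTTF-1. They were 0.345 (0.273 to 0.434) for Smad4 and 0.497 (0.421 to 0.588) for A549. All 4 were nearer to 1 than without strata, and their intervals stayed below 1. Peaks are not replicates of a condition, so these tests and intervals describe the lists and cover counting error only.

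Along the 0 h list, the share of peaks with Smad3 siControl was lower at 0 h-only than at stable peaks from the second stratum on, and within each set it was highest in the earliest stratum with more than 2 peaks. From the second to the fifth stratum Smad3 siControl peaks lay at 11.4% (7.53 to 16.4), 7.89% (6.62 to 9.31), 6.45% (5.69 to 7.28) and 5.69% (5.08 to 6.36) of the 0 h-only peaks. Of the stable peaks, 56.3% had one in the first stratum, where 2 peaks were 0 h-only, and 31.1% (30.0 to 32.3), 22.3% (21.1 to 23.5), 20.1% (18.6 to 21.8) and 22.0% (19.5 to 24.7) in the next 4. Over the last 3 strata the share of stable peaks thus showed no steady fall. Smad3 siTTF-1 peaks lay at 18.3% (13.4 to 24.0) of the 0 h-only and 34.1% (32.9 to 35.3) of the stable peaks in the second stratum, and at 13.5% (12.6 to 14.5) and 33.4% (30.5 to 36.4) in the fifth. Smad4 and A549 shares showed no fall along the list in 0 h-only peaks. From the second to the fifth stratum Smad4 lay at 0.457%, 0.683%, 0.876% and 1.00% of the 0 h-only peaks, with overlapping intervals, and A549 Smad3 at 0.457%, 1.37%, 1.70% and 2.01%.

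**Figure D4:**
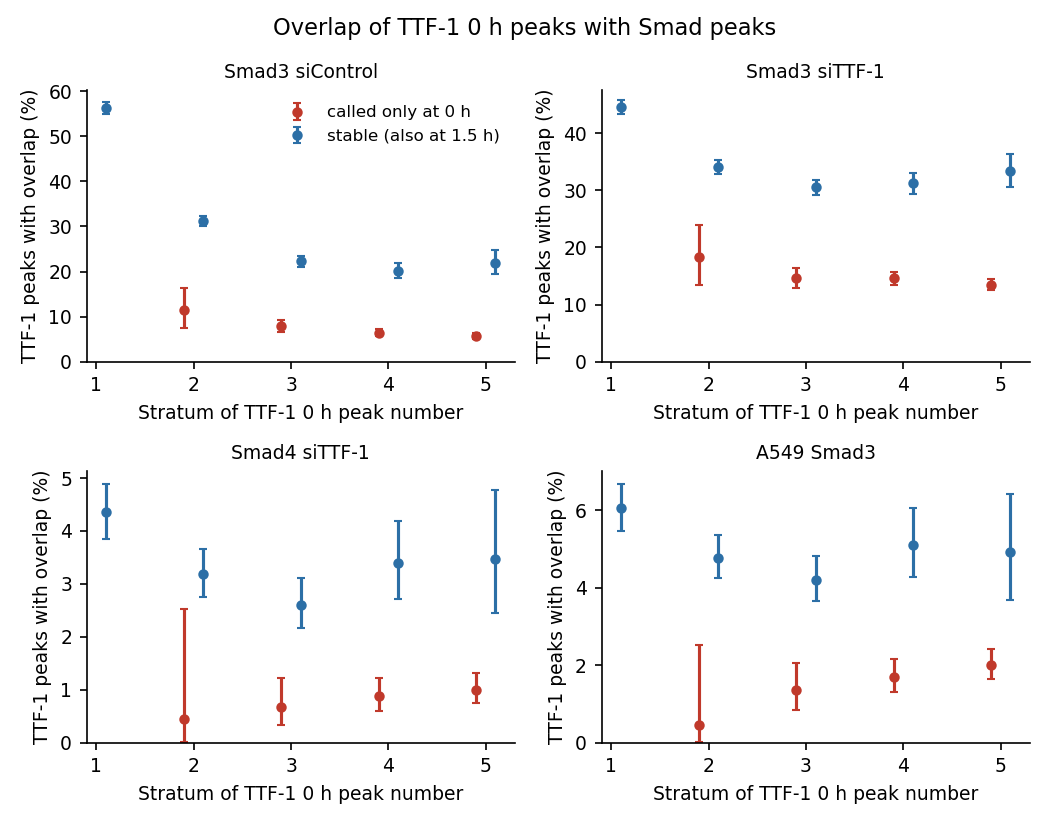
Share of TTF-1 0 h peaks that overlap a Smad peak (y axis, percent) in 5 equal strata of the 0 h peak number (x axis), 1 panel per Smad list, with exact binomial 95% intervals. Peaks called only at 0 h lie below stable peaks in every stratum drawn; the first stratum of the 0 h-only set, with 2 peaks, is left out.

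Smad3 was more frequent at 0 h-only peaks close to stable peaks. Smad3 siControl peaks lay at 97 of the 936 0 h-only peaks within 1 kb of a stable peak (10.4%, 8.48 to 12.5). They lay at 8.26% (6.99 to 9.69) of those between 1 and 5 kb, at 6.98% (5.62 to 8.56) between 5 and 10 kb and at 5.16% (4.17 to 6.31) beyond 100 kb. For Smad3 siTTF-1 the shares in these classes were 16.6% (14.2 to 19.1), 16.5% (14.7 to 18.3), 16.2% (14.2 to 18.4) and 12.2% (10.7 to 13.8). The 26 0 h-only peaks that shared their Smad3 siControl peak with a stable peak were not left out. A Smad3 peak over both can raise the share at short gaps, and the share without these 26 was not computed. Smad4 shares ranged between 0.718% and 1.20% over the 6 classes, with overlapping intervals.

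The 2 Smad3 lists divided the 0 h-only peaks into 4 states. A total of 606 (5.62%, 5.19 to 6.07) overlapped Smad3 in both conditions, 85 (0.788%, 0.630 to 0.974) in siControl cells only, 924 (8.57%, 8.05 to 9.12) in siTTF-1 cells only, and 9165 (85.0%, 84.3 to 85.7) in neither. Of the stable peaks, 27.9% (27.3 to 28.5) had Smad3 in both conditions, 7.14% (6.79 to 7.50) in siControl cells only, 8.20% (7.82 to 8.58) in siTTF-1 cells only and 56.8% (56.1 to 57.5) in neither. The intervals of the share with Smad3 in siTTF-1 cells only overlap between the sets, and the shares with Smad3 in siControl cells were lower at 0 h-only peaks. The 606 peaks with Smad3 in both conditions were the closest to stable peaks, at a median gap of 11601 bp. It was 14651 bp for siControl only, 18101 bp for siTTF-1 only and 21351 bp for neither. Stable peaks showed the same order, with median gaps to another stable peak of 9226, 9951, 14951 and 17101 bp. The median number of the 606 0 h-only peaks, 23968, differed little from the 24630 of 0 h-only peaks without Smad3. At stable peaks the number differed more between states, with medians of 4047.5 for siControl only, 7089.5 for both, 14007.5 for siTTF-1 only and 11770 for neither.

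Smad4 and A549 Smad3 followed the Smad3 state. Smad4 siTTF-1 peaks lay at 55 of the 606 0 h-only peaks with Smad3 in both conditions (9.08%, 6.91 to 11.6), against 11.1% (10.3 to 11.9) of such stable peaks. They lay at 34 of the 924 with Smad3 in siTTF-1 cells only (3.68%, 2.56 to 5.10), against 3.19% (2.39 to 4.15) of such stable peaks. None of the 85 with Smad3 in siControl cells only had Smad4, a count of 0 that allows up to 3.53% as 3 counts of the total and 4.25% by the exact interval. A549 Smad3 lay at 13.0% (10.5 to 16.0) of the 0 h-only and 14.5% (13.6 to 15.5) of the stable peaks with Smad3 in both conditions, and at 0.655% (0.500 to 0.842) and 0.772% (0.621 to 0.949) of those with Smad3 in neither. Within the 4 states, which were set after the data had been seen, the odds ratio of 0 h-only against stable peaks was 0.873 (0.693 to 1.10) for Smad4 and 0.877 (0.739 to 1.04) for A549. Both intervals include 1, so no difference in Smad4 or A549 Smad3 was detected among TTF-1 sites of the same Smad3 state.

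All 4 lists were overlapped by 251 of the 20303 stable peaks and by 20 of the 10780 0 h-only peaks. Such an overlap requires Smad3 in both conditions, which 5662 stable and 606 0 h-only peaks had. These counts are therefore not read as a trait apart from the Smad3 state. The first 3 by number of the 20 0 h-only peaks lay on chromosome 20 (55706251 to 55707099, number 14230), chromosome 1 (203530401 to 203530749, number 20073) and chromosome 16 (85255751 to 85256549, number 21506). The site on chromosome 20 coincided with number 9 of the A549 Smad3 list and number 70 of the Smad4 siTTF-1 list. It lay 15801 bp from the nearest TTF-1 1.5 h peak.

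A few 0 h-only peaks carried Smad3 peaks from the head of the Smad3 list. The lowest Smad3 siControl numbers were 41, on chromosome 16 (3010801 to 3011499), 46, on chromosome 9 (6557051 to 6557799), 73, on chromosome 15 (65187151 to 65187349), 139, on chromosome 13 (30301451 to 30301699) and 381, on chromosome 6 (159191551 to 159192099). In the TTF-1 0 h list these 5 stood at numbers 25530, 30875, 30165, 29410 and 29304, all in the last of the 5 strata. The first 3 and the last lay within 551 bp of a TTF-1 1.5 h peak, and the peak on chromosome 13 lay 16401 bp from one. That site was also number 4 of the Smad3 siTTF-1 list and number 24 of the Smad4 siTTF-1 list. The site on chromosome 6 was not called for Smad3 after siTTF-1 but was a Smad3 site of A549 cells. Low Smad3 numbers at late TTF-1 numbers were the exception: the 656 Smad3 siControl peaks that touched only 0 h-only peaks had a median Smad3 number of 6293.5 and a median width of 499 bp, against 3988 and 599 bp for the 7183 that touched a stable peak.

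The last comparison asked how TTF-1 depletion related to Smad3 at these sites, counted in Smad3 peaks. Of the 656 Smad3 siControl peaks that touched only 0 h-only peaks, 79 (12.0%, 9.65 to 14.8) were not called after siTTF-1. Of the 7183 at stable peaks, 1508 (21.0%, 20.1 to 22.0) were not, and of all 8941 siControl peaks 19.2%. The share was 11.9% (10.0 to 13.9) for the 1102 Smad3 peaks with no TTF-1 0 h peak. For loss at 0 h-only against stable peaks the odds ratio was 0.515 (0.405 to 0.656, two-sided Fisher's exact test, adjusted over 2 tests p = 1.1e-08). Taken over 5 strata of the Smad3 peak number, the ratio was 0.288 (0.223 to 0.371). Among Smad3 peaks of the lowest numbers (stratum 1), 0 of 42 at 0 h-only sites were lost, a count of 0 that allows up to 7.14% as 3 counts of the total and 8.41% by the exact interval, against 4.25% (3.34 to 5.33) at stable sites. The loss also varied with the peak number of TTF-1. At stable peaks, the share of Smad3 peaks lost was 27.0% (25.5 to 28.4) where the 0 h number fell in the first stratum and 18.0%, 12.5%, 9.38% and 12.7% in the next 4. At 0 h-only peaks it was 15.4% (4.36 to 34.9), 14.4% (8.76 to 21.8), 11.4% (7.64 to 16.1) and 11.2% (7.71 to 15.7) in the second to the fifth stratum. In 5 strata of the TTF-1 0 h number the odds ratio came to 1.06 (0.790 to 1.42). In 25 strata of the TTF-1 and Smad3 numbers it was 0.829 (0.609 to 1.13), both set after the data had been seen. These 2 intervals include 1, so no difference in loss was detected among TTF-1 peaks of like number, and a smaller one is not excluded.

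Smad3 peaks called only after TTF-1 depletion made up most of the Smad3 siTTF-1 peaks at 0 h-only sites. Of the 1481 siTTF-1 peaks that touched only 0 h-only peaks, 908 (61.3%, 58.8 to 63.8) had no siControl peak. The share was 23.0% (22.0 to 24.0) of the 7366 siTTF-1 peaks at stable peaks, 82.0% (80.9 to 83.0) of the 5298 with no TTF-1 0 h peak, and 49.1% of all 14145. Between 0 h-only and stable peaks this gave an odds ratio of 5.31 (4.72 to 5.97, two-sided Fisher's exact test, adjusted over 2 tests p = 3.5e-175). In 5 strata of the Smad3 peak number it was 4.83 (4.20 to 5.56). Here too the share moved with the TTF-1 number, at stable peaks 7.94% (6.97 to 8.99) in the first stratum and 43.8% (38.3 to 49.4) in the fifth, where it was 64.8% (61.0 to 68.4) at 0 h-only peaks. In 5 strata of the TTF-1 0 h number the odds ratio came to 2.21 (1.91 to 2.55), and in 25 strata of the TTF-1 and Smad3 numbers to 1.89 (1.59 to 2.23), both set after the data had been seen. Unlike the loss, the higher share of Smad3 peaks called only after depletion was therefore found among TTF-1 peaks of like number as well.

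The Smad3 lists differ in length, with 14145 peaks in siTTF-1 cells and 8941 in siControl cells. With the siTTF-1 list shortened to 8941 peaks by number, also set after the data had been seen, 8.15% (7.64 to 8.69) of the 0 h-only peaks met a Smad3 siTTF-1 peak and 6.41% a siControl peak, while the stable peaks had 26.5% (25.9 to 27.1) and 35.0%. Smad3 peaks not called in siControl cells then made up 43.8% (40.4 to 47.2) of the siTTF-1 peaks at 0 h-only sites and 12.7% (11.8 to 13.6) at stable sites. The Smad3 siControl peaks not called after siTTF-1 came to 27.6% (24.2 to 31.2) at 0 h-only and 34.6% (33.5 to 35.7) at stable sites, against 12.0% and 21.0% with the full list, and their odds ratio was 0.721 (0.604 to 0.862). At equal list length, Smad3 after depletion was thus more frequent at 0 h-only peaks and less frequent at stable peaks than in siControl cells. With 1 library per condition, a change of Smad3 binding and a difference between the libraries cannot be told apart.

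**Figure D5:**
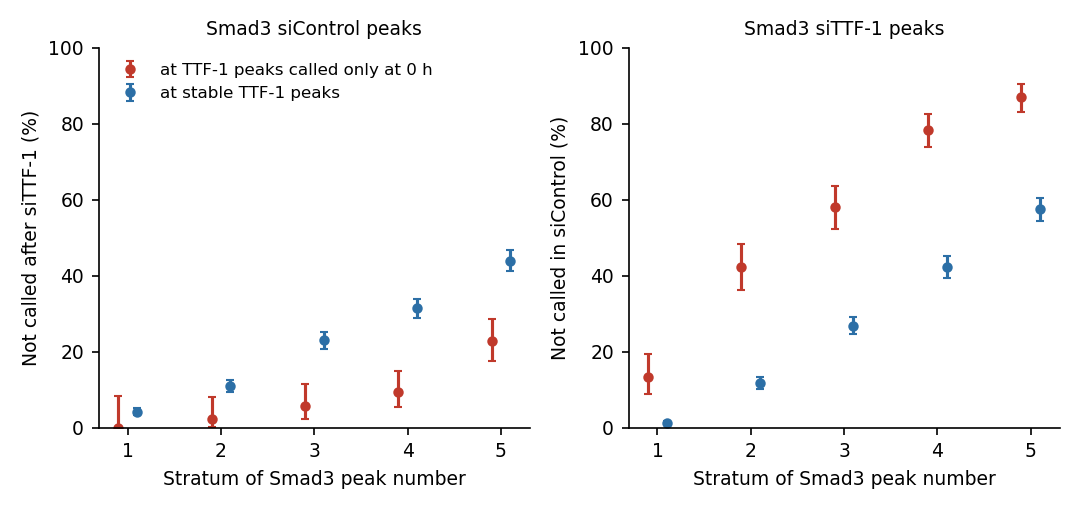
Share of Smad3 siControl peaks not called after siTTF-1 (left, y axis, percent) and of Smad3 siTTF-1 peaks not called in siControl cells (right) in 5 equal strata of the Smad3 peak number (x axis), at TTF-1 peaks called only at 0 h and at stable TTF-1 peaks, with exact binomial 95% intervals. In each stratum the left share is lower, and the right share higher, at 0 h-only peaks, with overlapping intervals on the left in the first stratum; totals are 12.0% and 21.0% on the left and 61.3% and 23.0% on the right.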

How the data were processed

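Peak lists of 7 ChIP-seq libraries of H441 and A549 cells were used, 1 library per condition, grouped by sample title. The limit on the false discovery rate, as the authors give it in the labels, was 1% for both TTF-1 lists and the H441 Smad3 lists, 10% for Smad4 and 5% for A549 Smad3. Input libraries are described as the controls. Coordinates are on hg18, from the submitters' processing notes. No source used here names the aligner or the peak caller. The deposited score is 1000 for every peak and was not used. Positions are deposited in steps of 50 bp, and 1 was added to the start.

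Overlap was at least 1 bp, and the same rule recovered the 3 subset lists deposited with the series peak for peak. Shares have exact Clopper-Pearson 95% intervals, a count of 0 also has the limit of 3 counts of its total, and odds ratios Woolf intervals with Fisher's exact test (two-sided) or Mantel-Haenszel intervals within strata. The members, lists and tests were chosen with earlier results of these data known. Peaks were named by fixed rules: lowest number, widest, lowest Smad3 number, all Smad lists, nearest to and farthest from a 1.5 h peak, smallest overlap, and windows of 1 Mb with the most members. The overlap code was checked against bedtools on deposited lists, with and without shifted positions. The strata code was tested on simulated set membership and overlaps at the real 0 h peak numbers. Python 3.11.15, NumPy 2.4.6, pandas 2.3.3, SciPy 1.17.1, statsmodels 0.14.6 and matplotlib 3.10.9 were used.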

Additional observations from a re-analysis of the deposited data

Results flagged for a closer look

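Taken over all peak numbers, the shares of Smad3 peaks called in only 1 siRNA condition differed between 0 h-only and stable TTF-1 peaks. The odds ratio for the loss of Smad3 siControl peaks after siTTF-1 was 0.515 (0.405 to 0.656) at 0 h-only against stable peaks, and that for Smad3 siTTF-1 peaks without a siControl peak was 5.31 (4.72 to 5.97), both by Fisher's exact test. The first was 1.06 (0.790 to 1.42) within 5 strata of the TTF-1 0 h peak number, and the second 2.21 (1.91 to 2.55). Within 25 strata of the TTF-1 and Smad3 peak numbers they were 0.829 (0.609 to 1.13) and 1.89 (1.59 to 2.23). No difference in loss was thus detected among TTF-1 peaks of like number. Both Smad3 lists come from single libraries, and peaks are not replicates of a condition.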

How the results depend on the processing

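Of 87 values recomputed for 9 results, 74 met the rule for agreement. Under this rule odds ratios kept their direction and their side of the threshold, whatever their size. Widths and shares stayed within the 95% interval of the reported value, and counts within 1.5 times the reported count. Some odds ratios that met the rule changed much in size. That of Smad3 siTTF-1 peaks without a siControl peak was 5.31 as reported, and 2.21 within 5 strata of the 0 h peak number. Within 25 strata of both peak numbers it was 1.89. The Smad3 siControl overlap had 0.127 as reported and 0.269 within 5 strata of the peak number. The A549 Smad3 overlap had 0.336 as reported and 0.497 within 5 strata of width. The Smad4 overlap had 0.254 as reported and 0.456 with 50% of the peak covered. The number of 0 h-only peaks was 3183 with the 0 h list shortened to the 1.5 h length and 5543 with the wider 50% of each list, where their median width was 449 and 649 bp. The share within 10 kb of a stable peak was 34.5% and 24.5% under these settings, 32.3% when edges within 500 bp counted as shared and 32.0% when peaks within 500 bp were merged. The odds ratio of Smad3 loss was 0.895 with centres within 200 bp and 0.829 within 25 strata of both peak numbers, each with an interval that includes 1, and turned to 1.06 within 5 strata of the 0 h peak number. Within the 4 Smad3 states the odds ratios were 0.873 for Smad4 and 0.877 for A549. Settings with 25 strata, the 0 h number for Smad3 changes, Smad3 states or a shortened siTTF-1 list were chosen after seeing the data. The causes of these changes were not tested. The depth of the libraries is unknown, so no limit of detection could be set. No paired analysis was possible because each condition has 1 library.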

Other observations

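The 0 h-only peaks were spread over the genome: 2387 of the 2566 windows of 1 Mb with a TTF-1 0 h peak held at least 1, and 144 of them lay in the 88 windows with no stable peak. The number of 0 h-only peaks and of stable peaks per window had a Spearman correlation of 0.65 across these windows, which share 1 library. The windows with the most 0 h-only peaks were 3000001 to 4000000 on chromosome 18, with 20 0 h-only and 17 stable peaks, 26000001 to 27000000 on chromosome 8, with 19 and 14, and 45000001 to 46000000 on chromosome 12, with 18 and 23.

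Along the chromosomes, 0 h-only peaks formed 6881 unbroken runs, of which 4417 were a single peak. Of all TTF-1 0 h peaks, 34.7% were 0 h-only. The runs of a random order were not computed, so these counts are a description only. The longest run held 9 peaks without a stable peak between them and spanned 7753.5 kb on chromosome 3 (87623751 to 95377249). None of its peaks overlapped a Smad3 peak of H441 cells. Among the 5 runs of 8 peaks, the one on chromosome 12 (51526551 to 51575899) spanned 49.3 kb and the one on chromosome 10 (73674101 to 73750149) spanned 76.0 kb. In the run on chromosome 10, 6 peaks overlapped a Smad3 siTTF-1 peak and 3 a Smad3 siControl peak, and in that on chromosome 12, 2 and 0 did. These runs were chosen after their values were seen.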
